A study of Mus musculus with 34 samples.

Results

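Nuclear receptor genes are described here as the rows of a liver expression table that carry the symbols of 31 receptors, out of 35976 symbols in the table. The receptors were taken by name, with no measured value in the rule. Total RNA had been sequenced from 34 mouse livers in which 1 of 5 genes was targeted by CRISPR or a control guide was given. Every animal was C57BL/6, carried TetO-Cas9 (a Cas9 switched on through a tetracycline-responsive promoter) and Rosa-rtTA (the activator that drives it), both homozygous, and ate Western Diet for 3 months. Controls therefore carried the same Cas9 and ate the same diet as the knockouts. The groups were Bcl6 KO (5 livers), Irs1 KO (5 livers), Smyd2 KO (6 livers), Srebf1 KO (5 livers) and Tbx3 KO (7 livers), named for the gene the guide targets, against 6 control livers with guides to GFP (sgGFP, 4 livers) or LacZ (sgLacZ, 2 livers). Guides were delivered by adeno-associated virus (AAV), and the share of liver cells edited is not given in the sources used here. A knockout liver may thus hold unedited cells.

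Nuclear receptors are transcription factors that bind DNA and, in most cases, a small lipid-soluble ligand such as a steroid, a bile acid, an oxysterol, a fatty acid, thyroid hormone or retinoic acid. Many of those that sense dietary lipids bind DNA as a pair with a retinoid X receptor (RXR), and corepressors such as NCOR1 or coactivators such as the NCOA proteins are exchanged when ligand binds. In liver the family is known for the control of bile acid and cholesterol disposal, drug metabolism, gluconeogenesis and triglyceride storage. BCL6 and TBX3, the targets of a pair of the guides, are themselves DNA-binding repressors, SREBP-1 (Srebf1) is the lipogenic transcription factor, IRS1 relays insulin signals, and SMYD2 is a lysine methyltransferase.

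The deposited values are FPKM, that is, fragments scaled to transcript length and to library size. Spacing between the lowest values of genes with a single transcript implied between 2110000 and 3130000 counted reads in each library (median 2610000), and columns summed to between 2790000 and 3090000 FPKM. A gene entered the tests if it reached 1 FPKM in at least 5 libraries, which 19295 genes did. Of the 31 receptors 30 passed, and Vdr, the vitamin D receptor, did not: it was at 0 in 16 libraries and at 0.724 FPKM at most. In 4 of the 5 livers labelled Srebf1 KO, Srebf1 lay between 499 and 632 FPKM, against 1095 to 2177 FPKM in control livers. The library labelled Srebf1 KO replicate 1 held 1908 FPKM and so went against its label, and calls that involve that group are given with and without it. Srebf1 averaged 816 ± 613 FPKM in the 5 Srebf1 KO livers and 1499 ± 447 FPKM in control livers, which did not pass (adjusted p = 0.0611). Smyd2 KO replicate 6 stood apart in 5 receptors, the lowest of its group in Nr1i3, Nr2c1, Nr5a2 and Esrrg and the highest in Rxrb. Without the first of these libraries 53 genes and no receptor passed in Srebf1 KO livers (smallest adjusted p of a receptor 0.296), and without the second 4 genes and no receptor in Smyd2 KO livers (0.137). None of the 5 targeted genes passed in its own knockout, and a CRISPR edit need not lower mRNA. Bcl6 averaged 64.3 ± 20.98 FPKM in Bcl6 KO and 67.1 ± 31.7 FPKM in control livers, and Smyd2 93.5 ± 22.8 FPKM in Smyd2 KO and 115 ± 26.1 FPKM in control livers. On average Irs1 and Tbx3 were higher in their own knockouts, at 29.8 ± 3.92 FPKM in Irs1 KO, against 23.5 ± 2.92 FPKM in control livers, and 135 ± 59.5 FPKM in Tbx3 KO, against 98.3 ± 39.5 FPKM in control livers. Between sgGFP and sgLacZ livers 2 genes and no receptor passed the test, and the 6 were used as 1 control group. The labels number the livers within each group and name no separate animals, so p-values measure the spread between these livers.

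The receptors differed widely in mRNA level. On the FPKM scale, which corrects for length, the highest levels belonged to Nr1i2 (the xenobiotic receptor PXR, 1235 FPKM), Nr3c1 (the glucocorticoid receptor, 1203 FPKM), Nr1i3 (the xenobiotic receptor CAR, 1033 FPKM), Rxra (RXR-alpha, 932 FPKM), Thrb (thyroid hormone receptor beta, 804 FPKM), Nr1h4 (the bile acid receptor FXR, 773 FPKM) and Nr1h3 (the oxysterol receptor LXR-alpha, 684 FPKM). The lowest among those tested were Rxrg (13.8 FPKM), Nr4a1 (13.0 FPKM), Nr2f1 (12.4 FPKM), Nr4a2 (11.2 FPKM) and Ppard (10.1 FPKM). Neighbours in this order mostly overlapped in their ranges over livers, so the order is a description, and whether each deposited value is a sum over transcripts is not given in the sources used here. Spread over all 34 livers also differed between receptors. Nr1h3, Nr3c1 and Rora had coefficients of variation of 9.24%, 9.96% and 10%, whereas Esr1, Nr4a1, Esrrg, Nr4a2 and Pparg had 58.3%, 55.5%, 50.1%, 48.4% and 43.4%.

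**Figure D1:**
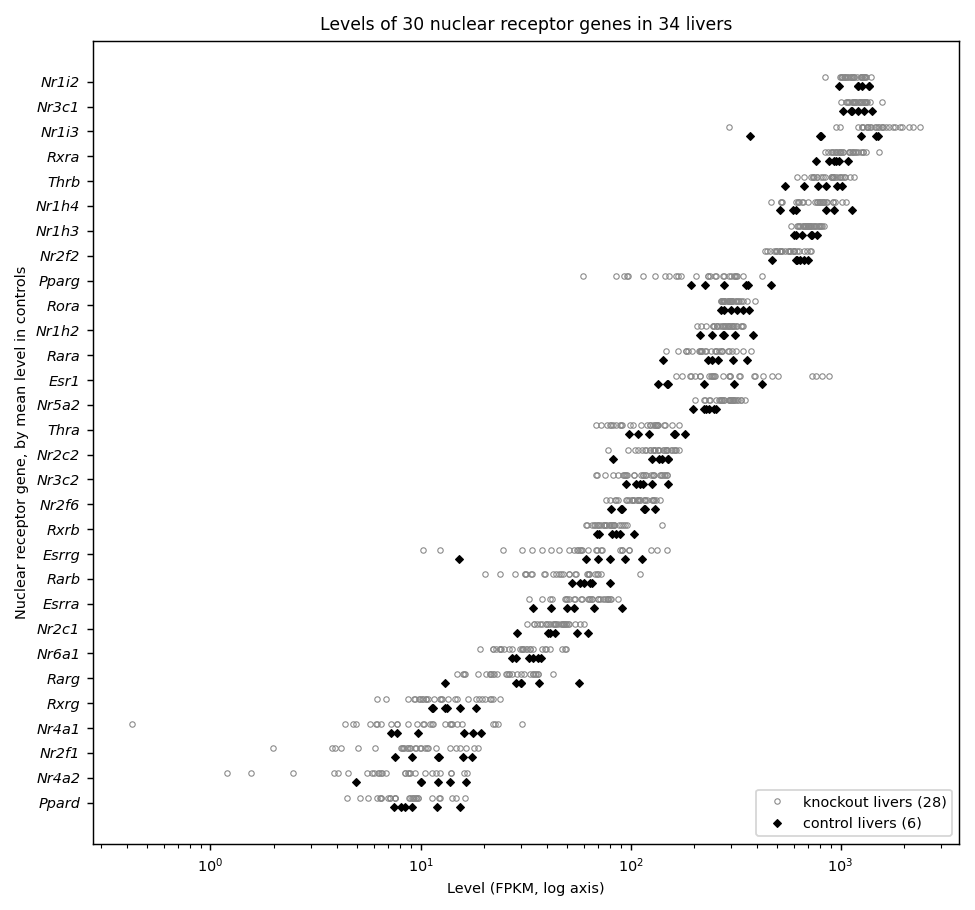
FPKM (log axis) of 30 receptor genes in the 28 knockout livers (open circles) and the 6 control livers (black diamonds), 1 point per liver, ordered by the mean in controls. Nr1i2 leads at 1235 FPKM and Ppard is lowest at 10.1 FPKM; the isolated high circles of Esr1 are Bcl6 KO livers and the isolated low circle of Nr1i3 is Smyd2 KO replicate 6, at 296 FPKM.

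Between knockouts and controls, most receptors did not pass the test. Changes are differences in log2(FPKM + 1) from limma, fitted to all 34 livers together, with Benjamini-Hochberg p-values taken over the 19295 tested genes and a threshold of 0.05. In Bcl6 KO livers 3 of 30 receptors passed, 1 higher and 2 lower (10% of those tested), where 6.14% of all genes passed, 2.95% higher and 3.19% lower. In Irs1 KO livers 5 of 30 passed, 2 higher and 3 lower (16.7%), where 10.9% of all genes passed, 3.24% higher and 7.61% lower. In Tbx3 KO livers 2 of 30 passed, 1 higher and 1 lower (6.67%), where 2.54% of all genes passed, 1.17% higher and 1.37% lower. No receptor passed in Srebf1 KO livers, where 0.378% of genes did, 0.197% higher and 0.181% lower, or in Smyd2 KO livers, where 0% did (limma; 1384 genes had an unadjusted p under 0.05). These counts rest on 5 receptors or fewer in each comparison, and none is read as particular to receptors. At an unadjusted p under 0.05, limma found 9, 7, 3, 4 and 8 of 30 receptors in Bcl6, Irs1, Smyd2, Srebf1 and Tbx3 KO livers. Of the 19295 tested genes it found 3493, 4868, 1384, 2519 and 3378 in that order, and these receptor counts are not read as a result either. The median log2 change over the 30 receptors was −0.04, 0.01, 0.01, −0.05 and −0.03 in the same order, beside −0.07, −0.12, −0.00, −0.05 and −0.06 over all genes. The 5 comparisons share their 6 control livers. In Irs1 KO livers the median over all genes depended on scaling, at −0.12 with the deposited scale, 0.11 with equal medians and 0.02 with quantile normalization, and changes of that size are not read as changes. Equal medians moved it to 0.08 in Srebf1 KO and 0.07 in Tbx3 KO livers. Among calls in Irs1 KO livers, 29.8% were higher with the deposited scale, 69.4% with equal medians and 49.3% with quantile normalization. The same shares were 48.1%, 66.2% and 59.3% in Bcl6 KO, 52.1%, 70.7% and 57.7% in Srebf1 KO, and 45.9%, 69.8% and 49.6% in Tbx3 KO livers.

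**Figure D2:**
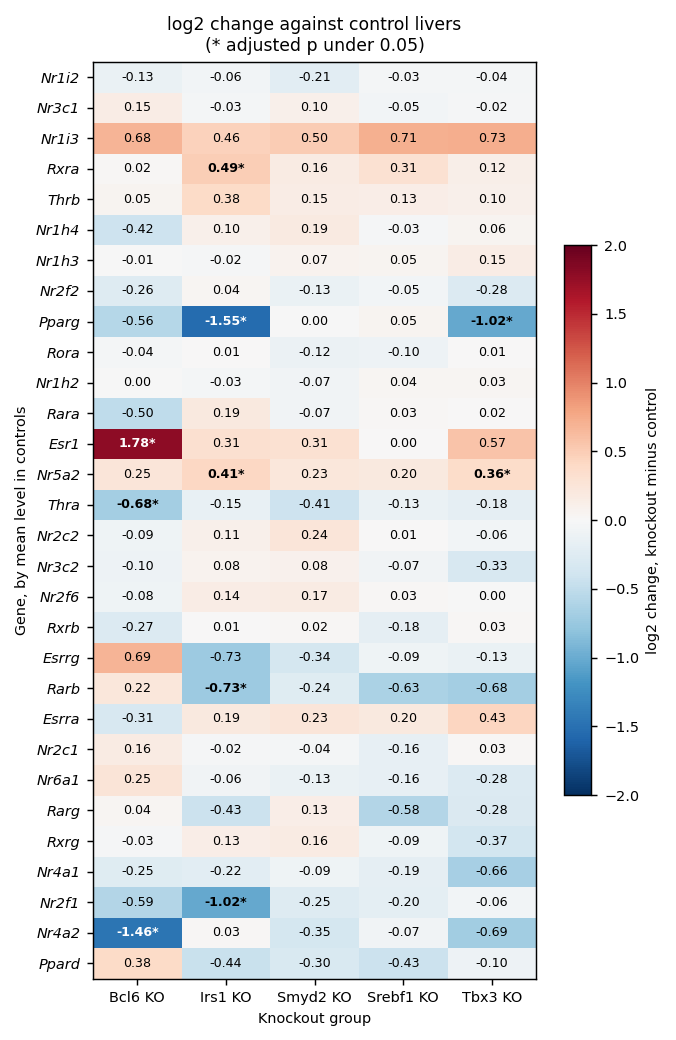
log2 change of 30 receptor genes (rows, by mean level in controls) in the 5 knockout groups (columns), knockout minus control, with red for higher, blue for lower and an asterisk for an adjusted p under 0.05. The 10 calls fall on 8 genes: Esr1, Thra and Nr4a2 in Bcl6 KO, Rxra, Pparg, Nr5a2, Rarb and Nr2f1 in Irs1 KO, and Pparg and Nr5a2 in Tbx3 KO.

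Ranges over livers were compared too. Of the 30 receptors tested, 1 did not overlap with controls in Bcl6 KO livers (4.27% of all genes did not). In Irs1 KO livers 4 of the 30 did not (7.45% of all genes). Each of these was among the receptors called. No receptor was free of overlap in Smyd2 KO (0.347% of all genes), Srebf1 KO (1.95%) or Tbx3 KO livers (0.829%). For each of the 10 calls, every knockout liver was on 1 side of the mean of control livers on the log2 scale.

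**Figure D3:**
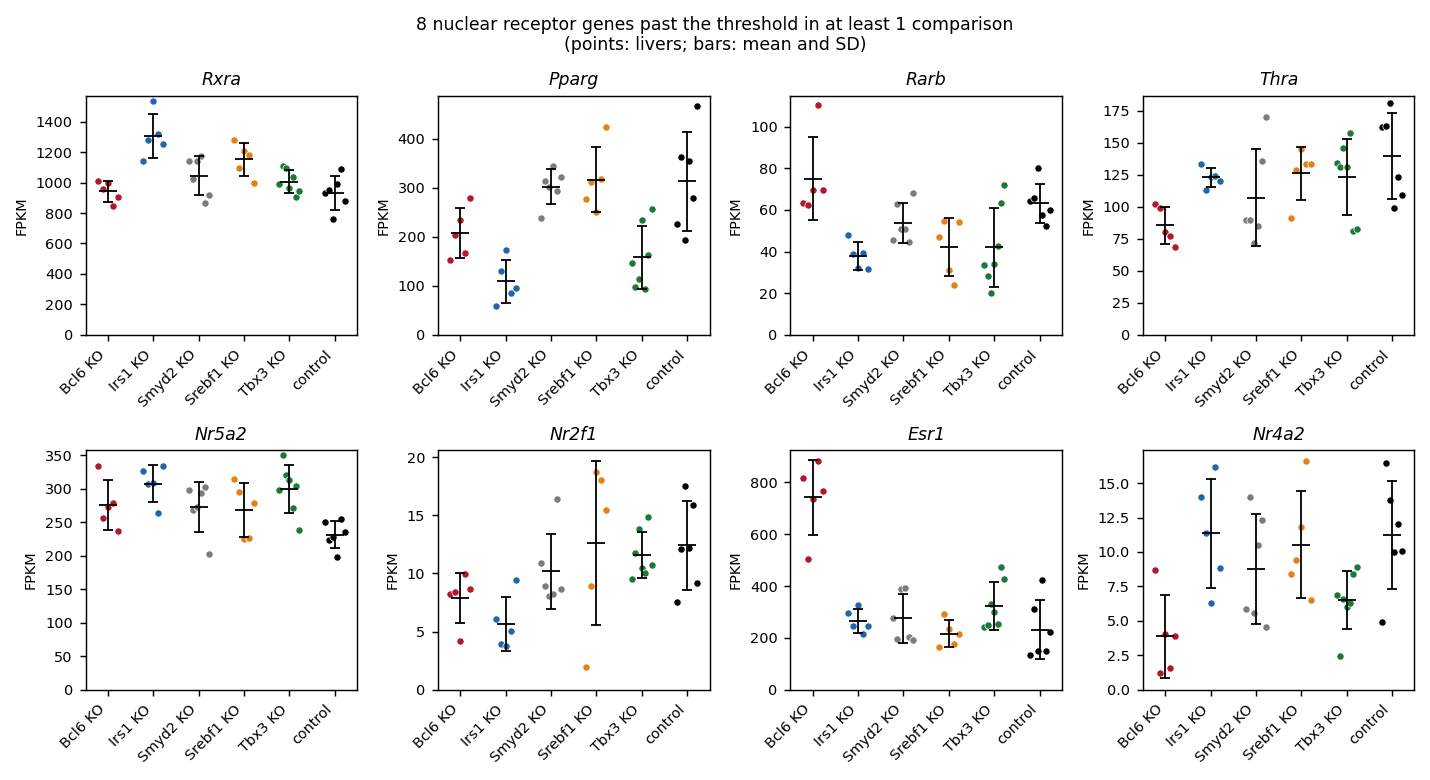
FPKM per liver (points) with mean and SD (bars) for the 8 receptor genes that passed the test in at least 1 comparison, in 5 knockout groups and, at the right, controls. Bcl6 KO livers reach 505 to 884 FPKM of Esr1 while no other liver exceeds 472 FPKM, and Irs1 KO livers lie lowest in Pparg.

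Among the steroid receptors, Esr1, which encodes estrogen receptor alpha, rose in Bcl6 KO livers more than any other receptor moved in any comparison. The 5 Bcl6 KO livers held 816, 505, 735, 884 and 767 FPKM, against a lowest value of 135, a median of 187 and a highest of 423 FPKM in control livers. Every Bcl6 KO liver was above every control liver. Means were 742 ± 143 FPKM in Bcl6 KO livers (SD, n = 5) and 232 ± 115 FPKM in control livers (SD, n = 6), a log2 change of 1.78 (SE 0.25; limma, adjusted p = 7.52e-06). No liver left out and no alternative setting tried ended this call. The 10 pairs of knockouts were compared in the same fit, each adjusted over all genes. Of 30 receptors 7 passed between Bcl6 KO and Irs1 KO livers (11.3% of all genes did), 4 between Bcl6 KO and Srebf1 KO (8.76%), 4 between Bcl6 KO and Tbx3 KO (9.31%) and 2 between Bcl6 KO and Smyd2 KO (5.83%). Receptors called numbered 2 between Irs1 KO and Smyd2 KO (4.26% of all genes), 1 between Irs1 KO and Srebf1 KO (1.6%), 1 between Irs1 KO and Tbx3 KO (2.81%), 1 between Smyd2 KO and Tbx3 KO (0.902%), 1 between Srebf1 KO and Tbx3 KO (0.943%) and 0 between Smyd2 KO and Srebf1 KO (0.0777%). Bcl6 KO livers exceeded each of the other 4 knockouts in Esr1, by 1.47 over Irs1 KO, 1.47 over Smyd2 KO, 1.78 over Srebf1 KO and 1.21 over Tbx3 KO on the log2 scale (limma, adjusted p = 0.000191, 0.000152, 1.48e-05 and 0.000939). Once the library labelled Srebf1 KO replicate 1 was left out, the difference from Srebf1 KO was 1.69 (adjusted p = 0.000104). In the other knockouts Esr1 averaged 266 ± 45.6 FPKM in Irs1 KO, 275 ± 95.2 FPKM in Smyd2 KO, 217 ± 51.6 FPKM in Srebf1 KO and 325 ± 92.3 FPKM in Tbx3 KO livers, and none of these passed against control. The lowest Tbx3 KO liver, at 241 FPKM, was above the control mean (log2 change 0.57, adjusted p = 0.183), and limma gave 0.0483 without sgGFP replicate 4, the control liver at 423 FPKM. Pgr, the progesterone receptor and in other tissues a textbook target of estrogen receptor alpha, was at 1.64 ± 0.992 FPKM in Bcl6 KO livers and 0.218 ± 0.172 FPKM in control livers (log2 change 1.04, SE 0.22, adjusted p = 0.00256). Its ranges overlapped, with the lowest Bcl6 KO liver at 0.453 FPKM and the highest control liver at 0.548 FPKM. No control liver reached the filter of 1 FPKM, so Pgr passed that filter through knockout livers alone. Any link between Pgr and Esr1 was not tested.

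An upstream stretch of Esr1 (chr10:4611593-5005614 on GRCm38, plus strand) is shown because the targeted gene of that group encodes a DNA-binding protein. The known consensus of that protein is close to the STAT palindrome. Of the 31 receptors, 29 matched 47 upstream windows in RefSeq (GRCm38.p6), each of 250 bases before a start. The motif TTCNNNGAA was searched on both strands and was found in 3 of the 47 receptor windows and in 7.02% of 32851 windows of all genes. The stretch below is chr10:4709908-4710007 on the plus strand, from 250 to 151 bases before a RefSeq start of Esr1, with the match in capitals. The window was picked because it holds the match, and that start lies inside the gene interval. The match is a description of letters and not a site.
Esr1: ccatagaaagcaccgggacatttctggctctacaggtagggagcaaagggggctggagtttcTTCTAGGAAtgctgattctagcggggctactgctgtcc

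Markers of the cell types that a liver holds moved in the same livers. In Bcl6 KO livers 5 of 6 hepatocyte markers rose, and their summed level was 143900 to 201800 FPKM, against 63800 to 87160 FPKM in control livers. Alb alone, the gene of serum albumin, averaged 131469 ± 26540 FPKM in Bcl6 KO livers and 45811 ± 6557 FPKM in control livers. Of 7 endothelial markers 4 rose, with sums of 788 to 889.5 FPKM in Bcl6 KO livers, against 557 to 766.5 FPKM in control livers. Of 9 stellate cell and fibroblast markers Lrat fell (sums of 837 to 1168 FPKM, against 935 to 1880 FPKM), as did Sox9 of 5 cholangiocyte markers (408 to 1029 FPKM, against 632 to 2917 FPKM), none of 7 macrophage markers (509 to 1270 FPKM, against 516 to 809.8 FPKM), 5 lymphocyte markers (314 to 506 FPKM, against 281 to 558 FPKM) or 2 neutrophil markers (6.05 to 36.8 FPKM, against 11.8 to 109 FPKM) passed, and Krt7, Cd79a and Ly6g were at 0 or under 1 FPKM. These marker counts varied. The 5 hepatocyte markers became 3 without Bcl6 KO replicate 1 or 4 or sgGFP replicate 2 and in a fit of both groups alone. The 4 endothelial markers became 2 when any of Bcl6 KO replicates 1 to 4, sgGFP replicate 2 or sgLacZ replicate 2 was left out, and 1 against sgGFP livers alone. Lrat lost its call without Bcl6 KO replicate 1 or 4 (up to 0.0958), and Sox9 without these or sgGFP replicate 1 or 3 (up to 0.0787). Macrophage markers called higher numbered 2 without Bcl6 KO replicate 5 and 1 without sgGFP replicate 2. In whole-liver RNA, fewer cells of a type and less RNA per cell cannot be told apart, and the part of these markers in the Esr1, Thra and Nr4a2 results was not tested.

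The other steroid receptors did not pass in any knockout. Nr3c1, the glucocorticoid receptor, had group means between 1158 and 1335 FPKM in the knockouts and 1203 ± 139 FPKM in control livers, with log2 changes of −0.05 to 0.15. Nr3c2, the mineralocorticoid receptor, had group means of 94.9 to 124 FPKM in the knockouts and 118 ± 19.5 FPKM in control livers, with log2 changes of −0.33 to 0.08. Of 11 genes listed as glucocorticoid receptor targets, 3 rose in Irs1 KO livers and none fell (list median −0.04, beside −0.12 over all genes). They were Tat (tyrosine aminotransferase, log2 change 1.16, adjusted p = 0.00272), Pck1 (the gluconeogenic enzyme PEPCK, 0.76, adjusted p = 0.0115) and Tsc22d3 (GILZ, 0.77, adjusted p = 0.0367). In Bcl6 KO livers Tat rose (0.93, adjusted p = 0.0182) and Tdo2, tryptophan dioxygenase, fell (−0.53, adjusted p = 0.0406), and no gene of that list passed in the other 3 knockouts. Tat in Bcl6 KO livers lost its call without Bcl6 KO replicate 1 or 4 or sgGFP replicate 1 or 2 (up to 0.0946), Tsc22d3 without Irs1 KO replicate 1, 2, 3 or 4, sgGFP replicate 2 or sgLacZ replicate 1 (up to 0.0977), and Tdo2 without Bcl6 KO replicate 1 or 4, sgGFP replicate 1 or 4 or either sgLacZ liver (up to 0.159). Settings also ended calls of Tat in Bcl6 KO livers (up to 0.101), Tsc22d3 (0.0735), Tdo2 (0.231) and Pck1 (0.0571). Tat is also among the hepatocyte markers counted as rising in Bcl6 KO and in Irs1 KO livers.

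Among the fatty acid receptors, Pparg (chr6:115360951-115490399, plus strand) fell in both Irs1 KO and Tbx3 KO livers. It encodes PPAR-gamma, the adipocyte regulator of lipid storage that is known to rise in fatty mouse liver. Irs1 KO livers held 59.6, 130.5, 174, 85.6 and 95.7 FPKM. Tbx3 KO livers ran between 93.1 and 256 FPKM with a median of 146 FPKM, and control livers between 194 and 467 FPKM with a median of 316 FPKM. Every Irs1 KO liver was below every control liver, while Tbx3 KO replicates 4 and 7, at 234 and 256 FPKM, lay within the range of controls. Means were 109 ± 44.2 FPKM in Irs1 KO livers (n = 5) and 314 ± 101 FPKM in control livers (n = 6), a log2 change of −1.55 (SE 0.25; limma, adjusted p = 0.00018) that held under every setting tried. Tbx3 KO livers averaged 158 ± 64.9 FPKM (n = 7), a log2 change of −1.02 (SE 0.23; adjusted p = 0.0124) that was lost against sgGFP livers alone (adjusted p = 0.0537) and in a fit of Tbx3 KO and control livers alone (0.0948).

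Pparg also differed between knockouts. Irs1 KO livers were lower than Smyd2 KO livers by −1.55 (adjusted p = 0.000776) and lower than Srebf1 KO livers by −1.60 (0.00062) on the log2 scale. Bcl6 KO livers were higher than Irs1 KO livers by 0.98 (0.0123, and 0.0598 without Irs1 KO replicate 1). Tbx3 KO livers were below Smyd2 KO livers (1.02 as Smyd2 KO minus Tbx3 KO, 0.0227) and Srebf1 KO livers (1.08 as Srebf1 KO minus Tbx3 KO, 0.0169). The first of these was lost when Smyd2 KO replicate 2 or 4, or Tbx3 KO replicate 2, 3 or 5, was left out (up to 0.0691), and the second without Srebf1 KO replicate 5 (0.0859). With the library labelled Srebf1 KO replicate 1 left out, the differences were −1.64 for Irs1 KO minus Srebf1 KO (0.00101) and 1.12 for Srebf1 KO minus Tbx3 KO (0.0277). Pparg averaged 302 ± 35.9 FPKM in Smyd2 KO and 317 ± 66.3 FPKM in Srebf1 KO livers, beside 314 ± 101 FPKM in control livers, with 95% intervals of the log2 change of −0.49 to 0.49 and −0.46 to 0.57. In Bcl6 KO livers it averaged 208 ± 51.0 FPKM (log2 change −0.56, adjusted p = 0.218), with all 5 livers below the control mean.

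Genes known to be driven by PPAR-gamma in fatty liver were lower in 3 knockouts. Of 9 listed, 6 fell in Irs1 KO livers, 5 in Tbx3 KO livers and 5 in Bcl6 KO livers, and none rose or fell in Smyd2 KO or Srebf1 KO livers. List medians were −1.48, −1.49 and −0.89 in Irs1, Tbx3 and Bcl6 KO livers on the log2 scale, beside −0.12, −0.06 and −0.07 over all genes. Cidec, a lipid droplet protein, averaged 61.7 ± 29.7 FPKM in Irs1 KO, 181 ± 109.6 FPKM in Tbx3 KO and 94.7 ± 70.1 FPKM in Bcl6 KO livers, against 554 ± 134 FPKM in control livers (log2 changes −3.22, −1.84 and −2.86; adjusted p = 1.77e-05, 0.00722 and 2.06e-05). Cd36, a fatty acid transporter, fell in Irs1 KO livers to 1050 ± 372 FPKM, against 2968 ± 381 FPKM in control livers (−1.56, adjusted p = 2.82e-06). Cd36 in Bcl6 KO livers, named after its values were seen, averaged 4178 ± 727 FPKM and did not pass (adjusted p = 0.112). Cidea, another lipid droplet protein, fell there by 3.81 on the log2 scale (adjusted p = 0.00289). Plin2, which coats lipid droplets, fell by 0.87 in Irs1 KO livers (adjusted p = 0.000293) and by 0.55 in Bcl6 KO livers (0.0209, lost without Bcl6 KO replicate 1 or 4, sgGFP replicate 2 or sgLacZ replicate 2, up to 0.0872). Plin4 and Mogat1, a lipid droplet protein and a monoacylglycerol acyltransferase, fell by 1.49 and 2.06 in Tbx3 KO livers (adjusted p = 0.000451 and 0.0124). The count of 6 in Irs1 KO livers did not move under any setting or liver left out, and the counts in Tbx3 and Bcl6 KO livers ranged from 3 to 6 and from 2 to 5. The Tbx3 KO count was 3 without sgGFP replicate 1, and the Bcl6 KO count 2 without Bcl6 KO replicate 4 and 3 without Bcl6 KO replicate 1 or 2, sgGFP replicate 2 or sgLacZ replicate 2. The summed level of the 9 genes was 2009 to 3160 FPKM in Irs1 KO livers, 3070 to 4970 FPKM in Tbx3 KO livers and 5161 to 7254 FPKM in Bcl6 KO livers, against 5315 to 6891 FPKM in control livers.

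**Figure D4:**
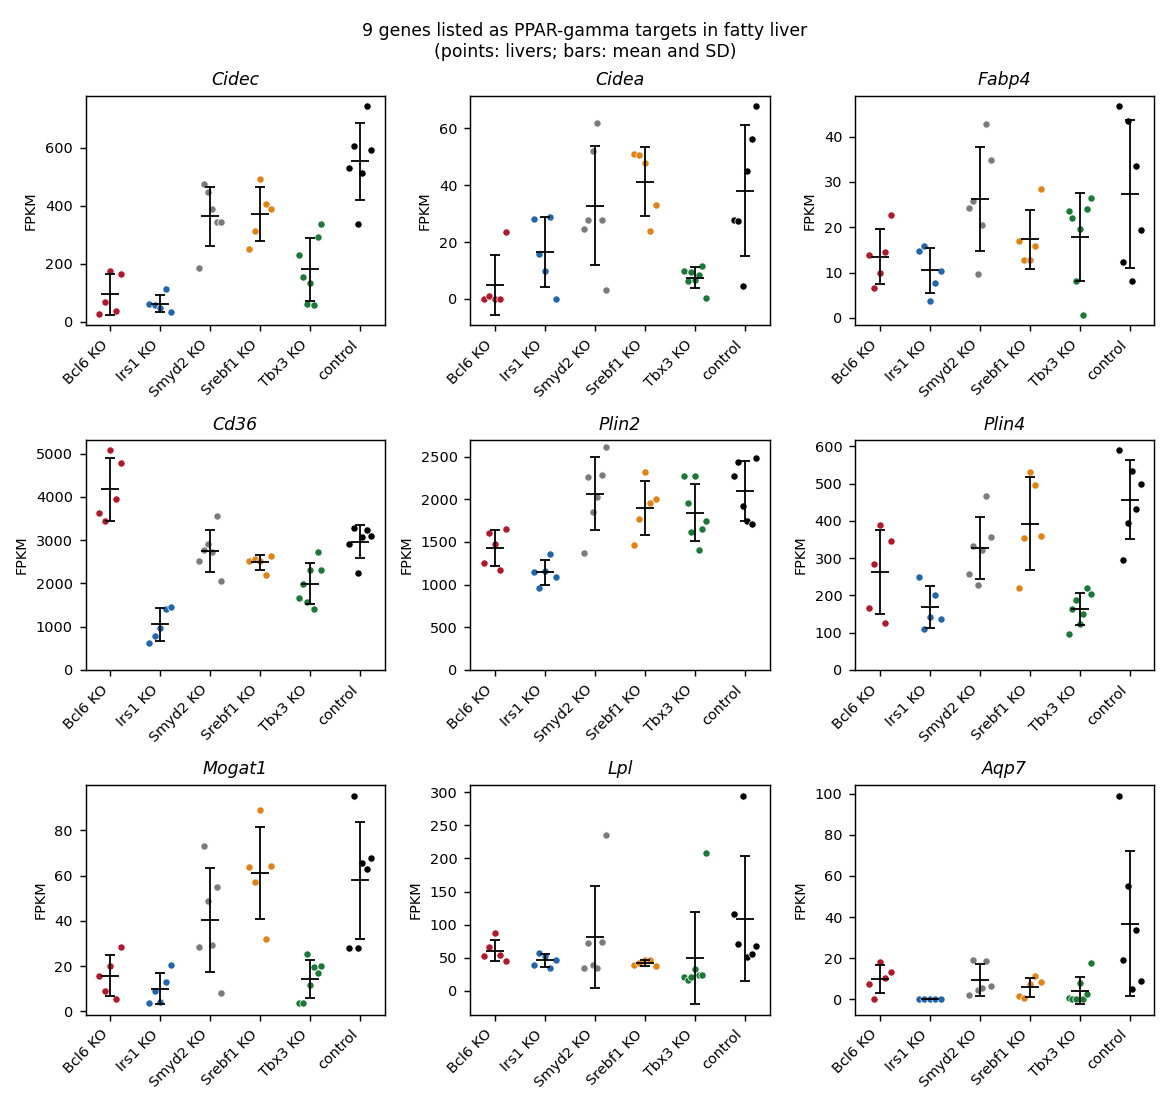
FPKM per liver (points) with mean and SD (bars) of 9 genes listed as PPAR-gamma targets in fatty liver, in 5 knockout groups and, at the right, controls. Irs1 KO, Tbx3 KO and Bcl6 KO livers sit low in Cidec and Mogat1. Irs1 KO and Tbx3 KO livers also sit low in Plin4, where Bcl6 KO livers reach into the control range. Cd36 is low in Irs1 KO livers, at 1050 FPKM on average, and lies above the control mean of 2968 FPKM in Bcl6 KO livers.

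An upstream stretch of Pparg is shown because Tbx3 KO is among the groups in which it fell and TBX3 binds T-box elements. The element TCACACCT was searched on both strands and was found in 1 of 47 receptor windows, that of Pparg, and in 1.12% of windows of all genes. The stretch is chr6:115362099-115362198 on the plus strand, from 250 to 151 bases before a start of Pparg, and the match in capitals reads on the other strand. The window was picked because it holds the match, which is a description of letters and not a site. That start of Pparg lies inside the gene interval. Whether TBX3 acts on Pparg was not tested.
Pparg: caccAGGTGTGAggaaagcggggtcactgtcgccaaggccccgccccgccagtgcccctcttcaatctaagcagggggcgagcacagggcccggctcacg

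Ppard, the widely expressed PPAR-delta, did not pass against control in any knockout (log2 changes −0.44 to 0.38), yet it differed among knockouts. It averaged 13.2 ± 2.70 FPKM in Bcl6 KO, 7.07 ± 1.56 FPKM in Irs1 KO and 7.40 ± 3.06 FPKM in Srebf1 KO livers, beside 10.1 ± 3.04 FPKM in control livers. Bcl6 KO livers exceeded Irs1 KO livers by 0.81 (adjusted p = 0.0129, and 0.0563 with quantile normalization) and Srebf1 KO livers by 0.81 (adjusted p = 0.0168). The second difference was 0.67 (adjusted p = 0.0642) once the library labelled Srebf1 KO replicate 1 was left out. It was also lost without Bcl6 KO replicate 4 or Srebf1 KO replicate 2. Ppara, the liver's main fatty acid receptor and no member of the 31, averaged 2066 to 2562 FPKM in the knockouts and 2240 ± 454 FPKM in control livers, and passed in none.

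Among the sterol and bile acid receptors, no gene passed against control. Nr1h3 (LXR-alpha) had group means of 675 to 760 FPKM in the knockouts and 684 ± 68.8 FPKM in control livers, and Nr1h2 (LXR-beta) 271 to 289 FPKM and 285 ± 58.3 FPKM. Nr1h4 (FXR) averaged 559 ± 80.3 FPKM in Bcl6 KO livers and 773 ± 240.2 FPKM in control livers (log2 change −0.42, adjusted p = 0.15), and 866 ± 192 FPKM in Smyd2 KO livers. The difference between Bcl6 KO and Smyd2 KO livers passed (−0.61, adjusted p = 0.0232) but was lost with equal medians (0.111) and when any of Bcl6 KO replicates 1, 2 and 4 or Smyd2 KO replicates 1, 3 and 4 was left out (up to 0.0906).

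Known targets of LXR moved in opposite directions in Irs1 KO livers, with 2 of 10 higher and 4 lower. Abcg8, a subunit of the sterol exporter, rose to 1007 ± 264 FPKM in Irs1 KO livers, against 442 ± 91.0 FPKM in control livers (log2 change 1.17, adjusted p = 0.00302). Pltp, phospholipid transfer protein, fell to 24.0 ± 6.44 FPKM, against 71.3 ± 19.6 FPKM in control livers (−1.53, adjusted p = 9.34e-05), and Scd1, stearoyl-CoA desaturase, fell as well (−0.92, adjusted p = 0.00152). No LXR target passed in the other 4 knockouts in the main fit. Under other settings, up to 3 were lower in Srebf1 KO livers and up to 1 in Bcl6 KO and in Tbx3 KO livers. In Bcl6 KO livers up to 1 was higher. The list includes Srebf1 itself. Of 7 tested FXR targets, Abcb11, the bile salt export pump, rose in Irs1 KO livers (0.55, adjusted p = 0.0134) and in Tbx3 KO livers (0.48, adjusted p = 0.0459). Abcb4, the canalicular phospholipid exporter, fell in Bcl6 KO livers (−0.80, adjusted p = 4.2e-06) and in Tbx3 KO livers (−0.39, adjusted p = 0.0284). Sdc1, syndecan-1, rose in Bcl6 KO livers (1.07, adjusted p = 1.87e-05). Both calls in Tbx3 KO livers were lost against sgGFP livers alone, with adjusted p up to 0.216 for Abcb11 and 0.136 for Abcb4 over all settings. Abcb11 also lost it when any of Tbx3 KO replicates 1 to 5, sgGFP replicates 1, 3 and 4 or sgLacZ replicate 1 was left out (up to 0.147), Abcb4 without Tbx3 KO replicate 1, 3 or 5, sgGFP replicate 2 or sgLacZ replicate 1 (up to 0.083), and Abcb11 in Irs1 KO livers without Irs1 KO replicate 3 (0.0538).

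Of the shared partners, Rxra (chr2:27676440-27762957, plus strand) rose in Irs1 KO livers. The Irs1 KO livers held 1144, 1279, 1532, 1316 and 1253 FPKM, against 761 at lowest, 939 at the median and 1086 at highest in control livers. All 5 were above every control liver. Means were 1305 ± 142 FPKM in Irs1 KO livers (n = 5) and 932 ± 109 FPKM in control livers (n = 6), a log2 change of 0.49 (SE 0.09; limma, adjusted p = 0.000867), kept in every setting and with each liver left out. Irs1 KO livers exceeded Bcl6 KO livers in Rxra (−0.47 as Bcl6 KO minus Irs1 KO, adjusted p = 0.000997), Tbx3 KO livers (0.37, 0.0171) and Smyd2 KO livers (0.32, 0.0393). The difference from Tbx3 KO was lost without Irs1 KO replicate 3 (0.0748). That from Smyd2 KO was lost without Irs1 KO replicate 2, 3, 4 or 5 or Smyd2 KO replicate 2, 5 or 6 (up to 0.117), and in several settings (up to 0.091). In Srebf1 KO livers Rxra averaged 1151 ± 107 FPKM with all 5 livers above the control mean (0.31, adjusted p = 0.136, and 0.27, 0.296, with the library labelled Srebf1 KO replicate 1 left out). Rxrb and Rxrg, the partners of lower level here, had group means of 68.5 to 86.8 FPKM and 10.6 to 16.2 FPKM in the knockouts and 83.5 ± 12.8 FPKM and 13.8 ± 2.68 FPKM in control livers. Neither passed in any comparison.

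Of the retinoic acid receptors, Rarb (chr14:16430839-16819156, minus strand) fell in Irs1 KO livers. Those livers held 47.8, 38.8, 31.9, 39.3 and 31.5 FPKM, against 52.4 at lowest, 62.0 at the median and 79.9 FPKM at highest in control livers. All 5 lay below every control liver. The means of 37.9 ± 6.69 FPKM in Irs1 KO livers and 63.3 ± 9.41 FPKM in control livers gave a log2 change of −0.73 (SE 0.24; adjusted p = 0.0431). That call was lost with no filter, equal medians, quantile normalization, sgGFP livers alone and no intensity trend, with adjusted p up to 0.139. It was also lost when any of Irs1 KO replicates 2 to 5, sgGFP replicates 1 to 3 or sgLacZ replicate 2 was left out (0.0541 to 0.0974). In Tbx3 KO livers Rarb ran between 20.3 and 72.1 FPKM with a median of 33.97 FPKM (−0.68, adjusted p = 0.0849). Replicates 6 and 7, at 63.2 and 72.1 FPKM, lay within the controls, and without replicate 6 or 7 the adjusted p was 0.038 or 0.0131. Exons of Rarb overlap Top2b on the other strand, and whether the counting used strand is not given in the sources used here.

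Between knockouts, Rarb was higher in Bcl6 KO livers (75.0 ± 20.1 FPKM) than in Irs1 KO livers by 0.95 (adjusted p = 0.00974), Srebf1 KO livers by 0.85 (0.0263) and Tbx3 KO livers by 0.90 (0.00894). Bcl6 KO replicate 4 held 110.4 FPKM, and without it the values were 0.80 (0.0426), 0.70 (0.105) and 0.76 (0.0518). The difference from Srebf1 KO livers was 0.90 (0.0305) once the library labelled Srebf1 KO replicate 1 was left out, and it was lost without Srebf1 KO replicate 3 or 4 (up to 0.111). Rara was lower in Bcl6 KO livers, at 184, 197, 185, 148 and 168 FPKM, than in Irs1 KO livers, at 374, 251, 229, 270.2 and 319 FPKM. The 2 groups did not overlap, and their difference was −0.69 (adjusted p = 0.00757). Against 259 ± 73.5 FPKM in control livers the Bcl6 KO value did not pass (−0.50, adjusted p = 0.0713), and without sgGFP replicate 4, the control liver at 143 FPKM, it did (−0.66, adjusted p = 0.00401). Rara was also lower in Bcl6 KO than in Tbx3 KO livers (−0.52, adjusted p = 0.0378), a call lost in 3 settings (up to 0.0587) and when any of Bcl6 KO replicates 1, 3, 4 and 5 or Tbx3 KO replicates 1, 2, 3 and 5 was left out (up to 0.124). Rarg did not pass against control in any knockout (−0.58 to 0.13). Without sgLacZ replicate 2, limma gave −0.66 in Irs1 KO livers (adjusted p = 0.0407).

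The Rarb stretch is shown because it holds the retinoic acid response element for which this gene is known, the core GTTCA repeated in 1 direction with 6 bases between. The search covered both strands and found it in 1 of 47 receptor windows and 0.067% of windows of all genes. It overlaps a match to TTCNNNGAA, the palindrome described for Esr1. The stretch is chr14:16575477-16575576 on the minus strand, the 100 bases before the start of a Rarb transcript, with the element in capitals.
Rarb: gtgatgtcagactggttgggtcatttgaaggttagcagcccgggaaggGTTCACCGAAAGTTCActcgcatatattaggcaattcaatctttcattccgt

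Of 5 tested genes listed as retinoic acid targets, Cyp26a1, the enzyme that degrades retinoic acid, rose in Bcl6 KO livers to 186 ± 58.2 FPKM, against 88.2 ± 43.8 FPKM in control livers (log2 change 1.2, adjusted p = 0.00471, and 0.0747 in a fit of those 2 groups alone). Tgm2, tissue transglutaminase, fell in Irs1 KO livers to 75.0 ± 5.26 FPKM, against 147 ± 31.1 FPKM in control livers (−0.94, adjusted p = 0.0106). Nothing else in the list passed.

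Cell markers moved with the Irs1 KO results on Pparg, Rarb and Nr2f1. Of 9 stellate cell and fibroblast markers 4 fell, among them Col3a1, Col1a1 and Pdgfrb, and the summed level was 748.5 to 815 FPKM in Irs1 KO livers, against 935 to 1880 FPKM in control livers. Of 5 lymphocyte markers Ptprc fell, with sums of 129.9 to 233.5 FPKM against 280.8 to 558 FPKM, and of 5 cholangiocyte markers Spp1 fell, with sums of 186 to 485 FPKM against 632 to 2917 FPKM. Of 7 endothelial markers Lyve1 and Pecam1 fell (442 to 665 FPKM, against 557 to 766.5 FPKM), none of 7 macrophage markers (440.5 to 779 FPKM, against 516 to 809.8 FPKM) or 2 neutrophil markers (2.90 to 17.6 FPKM, against 11.8 to 109 FPKM) passed, and 3 of 6 hepatocyte markers rose (73480 to 108600 FPKM, against 63800 to 87160 FPKM). In Tbx3 KO livers 2 of 9 stellate cell and fibroblast markers fell, and their sum was 567.6 to 1695 FPKM, 1 of 6 hepatocyte markers rose and 1 fell (71940 to 82960 FPKM), and no marker of the other 5 lists passed. The stellate cell and fibroblast count of 2 was 0 without Tbx3 KO replicate 2, 3 or 5 or sgGFP replicate 1 or 3, 1 without Tbx3 KO replicate 1 or 4, sgGFP replicate 2 or sgLacZ replicate 1, 4 without sgLacZ replicate 2, 5 without Tbx3 KO replicate 6 or 7, and 0 in a fit of those groups alone. Tbx3 KO replicate 7, the highest of its group in Pparg and Rarb, was also highest of its group in several marker sums. These were stellate cell and fibroblast (1695 FPKM), macrophage (1158 FPKM), cholangiocyte (1774 FPKM), lymphocyte (779 FPKM) and neutrophil markers (114 FPKM). Without that liver the Tbx3 KO change was −1.16 in Pparg (limma, adjusted p = 0.00212) and 0.42 in Nr5a2 (0.0103). In Irs1 KO livers Pecam1 and Ptprc lost their calls without Irs1 KO replicate 3 or sgGFP replicate 3 (up to 0.0901 and 0.0565). Krt7, Cd79a and Ly6g were at 0 or under 1 FPKM. The part of these markers in the receptor results was not tested.

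Of the thyroid hormone receptors, Thra (chr11:98740638-98769006, plus strand) fell in Bcl6 KO livers, which held 102, 99.3, 80.0, 77.0 and 68.6 FPKM. Control livers ran between 98.7 and 181 FPKM with a median of 142 FPKM, so that 2 Bcl6 KO livers lay within the lower end of the controls. The means of 85.4 ± 14.7 FPKM in Bcl6 KO livers and 139 ± 33.7 FPKM in control livers gave a log2 change of −0.68 (SE 0.20; limma, adjusted p = 0.0307). It was lost with equal medians (0.0685) and quantile normalization (0.0505), and when any of Bcl6 KO replicates 3, 4 and 5 or sgGFP replicates 1, 2 and 3 was left out (0.0606 to 0.0849). Exons of Thra overlap Nr1d1 (REV-ERB-alpha, a clock repressor) on the other strand, and Nr1d1 averaged 47.6 ± 49.2 FPKM in Bcl6 KO livers and 55.2 ± 27.0 FPKM in control livers (−0.75, adjusted p = 0.529). Thrb, the main thyroid hormone receptor of hepatocytes, averaged 1028 ± 105 FPKM in Irs1 KO livers and 804 ± 177 FPKM in control livers (0.38, adjusted p = 0.0732). It passed with equal medians (0.61, adjusted p = 0.0204), against sgGFP livers alone (0.47, 0.0446) and without sgGFP replicate 2 (0.0476) or sgLacZ replicate 1 (0.0361).

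Of 7 thyroid hormone targets, 2 fell in Bcl6 KO livers and 2 in Irs1 KO livers. Hr, a corepressor induced by thyroid hormone, fell in both, to 1.42 ± 1.02 FPKM in Bcl6 KO and 1.08 ± 1.04 FPKM in Irs1 KO livers, against 4.76 ± 1.41 FPKM in control livers (log2 changes −1.31 and −1.54; adjusted p = 0.0147 and 0.00345). Gpd2, mitochondrial glycerophosphate dehydrogenase, fell in Bcl6 KO livers (−0.67, adjusted p = 0.0142), and Me1, malic enzyme, fell in Irs1 KO livers (−1.01, adjusted p = 0.0233). The Bcl6 KO call of Hr was lost against sgGFP livers alone (0.0525) and without Bcl6 KO replicate 1 or 4 (up to 0.0632), and that of Gpd2 without Bcl6 KO replicate 1 (0.0701). The call of Me1 was lost with equal medians or sgGFP livers alone (up to 0.173) and without Irs1 KO replicate 3 or either sgLacZ liver (up to 0.061).

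Neither xenobiotic receptor passed. Nr1i2 (PXR) had group means of 1075 to 1206 FPKM in the knockouts and 1235 ± 142 FPKM in control livers. Nr1i3 (CAR) was above control on average in each knockout, at 1509 ± 235 FPKM in Bcl6 KO, 1292 ± 180.4 FPKM in Irs1 KO, 1580.1 ± 768 FPKM in Smyd2 KO, 1534 ± 146 FPKM in Srebf1 KO and 1597 ± 402 FPKM in Tbx3 KO livers, and 1033 ± 449 FPKM in control livers. On the log2 scale, 5 of 6 Smyd2 KO livers and every liver of the other 4 knockouts lay above the mean of controls. None of the log2 changes, 0.46 to 0.73, passed, and control livers themselves ran between 372 and 1503 FPKM. The smallest adjusted p was 0.226, in Tbx3 KO livers. Smyd2 KO replicate 6 held 296 FPKM, and without it the Smyd2 KO change was 0.93, against 0.50 with it, at adjusted p of 0.137 and 0.8. Vdr was not tested and reached 0.724 FPKM at most.

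Of 12 genes listed as targets of CAR and PXR, 2 rose and 1 fell in Bcl6 KO livers, 1 rose and 3 fell in Irs1 KO livers, 1 fell in Tbx3 KO livers and none passed in the other knockouts. Cyp3a11, the drug-metabolising cytochrome P450, fell in Tbx3 KO livers to 623 ± 658 FPKM, against 3451 ± 569 FPKM in control livers (log2 change −2.94, SE 0.36, adjusted p = 5.01e-06). Abcc3, a basolateral exporter of conjugates, fell in Bcl6 KO livers to 346.5 ± 140 FPKM, against 858 ± 104 FPKM in control livers (−1.40, adjusted p = 5.57e-06), and in Irs1 KO livers to 533 ± 145 FPKM (−0.72, adjusted p = 0.0144, lost with equal medians at 0.106 and without Irs1 KO replicate 3 at 0.0628). Ces2a, a carboxylesterase, rose in Irs1 KO livers (0.92, adjusted p = 0.0101) and Cyp2c55 fell there (−1.43, adjusted p = 0.0158, and 0.0531 without sgGFP replicate 3). Slco1a4, an organic anion importer, and Ugt1a1, the bilirubin glucuronosyltransferase, rose in Bcl6 KO livers (1.47 and 0.64; adjusted p = 0.0158 and 0.0229). Both were lost without Bcl6 KO replicate 1 or 4, Slco1a4 also with sgLacZ replicate 1 or sgGFP replicate 2 left out (up to 0.06) and in 2 settings (up to 0.1), and Ugt1a1 without sgGFP replicate 3 (up to 0.0909).

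Among the receptors with no settled ligand, Nr5a2 (chr1:136842571-136960448, minus strand) rose in Irs1 KO and Tbx3 KO livers. It encodes LRH-1, which binds DNA as a monomer and is known for the control of bile acid synthesis. Irs1 KO livers held 326, 306, 308, 264 and 334 FPKM. Tbx3 KO livers ran between 239 and 349.7 FPKM with a median of 305 FPKM, and control livers between 198 and 254 FPKM with a median of 232 FPKM. All Irs1 KO livers exceeded all controls, and the lowest Tbx3 KO liver was within them. Means were 308 ± 27.4 FPKM in Irs1 KO livers (n = 5), 299 ± 35.8 FPKM in Tbx3 KO livers (n = 7) and 232 ± 20.3 FPKM in control livers (n = 6). The Irs1 KO change of 0.41 (SE 0.11; limma, adjusted p = 0.0155) held under every setting and with each liver left out. The Tbx3 KO change of 0.36 (SE 0.10; adjusted p = 0.0457) was lost with no filter, sgGFP livers alone, no intensity trend and a fit of those groups alone (0.0507 to 0.112). It was also lost when any of Tbx3 KO replicates 1 to 6, any sgGFP liver or sgLacZ replicate 2 was left out (0.0564 to 0.113). In the other knockouts Nr5a2 averaged 268 to 276 FPKM, with log2 changes of 0.20 to 0.25 and no call.

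Upstream stretches of Rxra and Nr5a2, the receptors that rose in Irs1 KO livers, are shown with the core AGGTCA that nuclear receptors bind, in capitals on either strand. It was searched on both strands and found in 9 of 47 receptor windows and 14.0% of windows of all genes. The direct repeat of AGGTCA with 1 base between was in 0 of the 47 and in 0.0335% of all windows. The Rxra stretch is chr2:27709192-27709291 on the plus strand and the Nr5a2 stretch chr1:136960449-136960548 on the minus strand, each the 100 bases before a start. Both windows were picked because they hold a match, and that start of Rxra lies inside the gene interval.
Rxra: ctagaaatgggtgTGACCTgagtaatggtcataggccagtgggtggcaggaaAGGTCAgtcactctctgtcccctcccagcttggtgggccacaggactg
Nr5a2: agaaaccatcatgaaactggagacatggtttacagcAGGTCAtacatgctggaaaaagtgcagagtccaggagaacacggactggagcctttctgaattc

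Nr2f1 (chr13:78188973-78199757, minus strand), which encodes the orphan receptor COUP-TFI, fell in Irs1 KO livers. They held 6.04, 3.91, 3.79, 5.05 and 9.43 FPKM, against 7.57 at lowest, 12.1 at the median and 17.5 FPKM at highest in control livers. Only Irs1 KO replicate 5 lay within the range of controls. Means were 5.64 ± 2.31 FPKM in Irs1 KO livers and 12.4 ± 3.82 FPKM in control livers, a log2 change of −1.02 (SE 0.33; limma, adjusted p = 0.042). The call was lost with no filter (0.0612), equal medians (0.109), quantile normalization (0.159) and sgGFP livers alone (0.0798), and when any of Irs1 KO replicates 1 to 4, sgGFP replicates 2 to 4 or sgLacZ replicate 1 was left out (0.0556 to 0.104). Its exons overlap an antisense gene. Nr2f2, the paralog COUP-TFII, had group means of 509 to 638 FPKM in the knockouts and 619 ± 79.3 FPKM in control livers and did not pass (smallest adjusted p 0.119, in Tbx3 KO livers). Without sgLacZ replicate 2, the control liver at 472 FPKM, it was lower in Tbx3 KO livers (−0.35, adjusted p = 0.0368) and in Bcl6 KO livers (−0.33, 0.0455), and against sgGFP livers alone in Tbx3 KO livers (−0.37, 0.0391). Nr2f6, a further member of that subfamily, stayed between −0.08 and 0.17.

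Nr4a2 (chr2:57106830-57124003, minus strand), the immediate early receptor NURR1, fell in Bcl6 KO livers. They held 8.71, 1.2, 4.03, 1.56 and 3.89 FPKM, against 4.94 at lowest, 11.1 at the median and 16.5 FPKM at highest in control livers. Replicate 1 lay within the controls and the other 4 below them. Means were 3.88 ± 3.00 FPKM in Bcl6 KO livers and 11.2 ± 3.92 FPKM in control livers, a log2 change of −1.46 (SE 0.35; limma, adjusted p = 0.00757), and 0.053 in a fit of these groups alone. Bcl6 KO livers were also below Irs1 KO livers (−1.48, adjusted p = 0.00598) and Srebf1 KO livers (−1.39, adjusted p = 0.0125, and up to 0.0531 without Bcl6 KO replicate 2 or 4). That from Srebf1 KO livers was −1.45 (0.0179) with the library labelled Srebf1 KO replicate 1 left out. Nr4a1, the related NUR77, averaged 9.75 to 13.2 FPKM in the knockouts and 13.0 ± 5.41 FPKM in control livers and did not pass (−0.66 to −0.09).

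The estrogen-related receptors, which drive mitochondrial genes, did not pass against control. Esrra had group means of 43.8 to 72.8 FPKM in the knockouts and 56.4 ± 20.3 FPKM in control livers (smallest adjusted p 0.197, in Tbx3 KO livers). It was lower in Bcl6 KO than in Tbx3 KO livers (−0.74, adjusted p = 0.00866), a call kept in every setting and with each liver left out, and its exons overlap Trmt112 on the other strand. Esrrg varied widely, with a ratio of 14.4 between its highest and lowest liver, and of the tested receptors Nr4a1 had a larger ratio (72). It averaged 107 ± 40.5 FPKM in Bcl6 KO and 39.8 ± 18.7 FPKM in Irs1 KO livers, beside 72.3 ± 33.5 FPKM in control livers, and did not pass (adjusted p = 0.504 and 0.372). Of 8 genes listed as their targets, Cox5b, a cytochrome c oxidase subunit, rose in Tbx3 KO livers (0.66, adjusted p = 0.00298, and 0.0593 in a fit of those groups alone). Acadm, an acyl-CoA dehydrogenase, fell in Bcl6 KO livers (−0.49, adjusted p = 0.0362) and Vegfa rose in Irs1 KO livers (0.44, 0.0455). Acadm was lost in 5 settings (up to 0.222) and without Bcl6 KO replicate 1, 2 or 4, sgGFP replicate 1 or 4 or either sgLacZ liver (up to 0.153). Vegfa was lost in 4 settings (up to 0.114) and when any control liver, or any Irs1 KO liver other than replicate 3, was left out (up to 0.0972).

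The remaining orphan receptors stayed near control. Rora, known for its part in circadian and lipid genes, had group means of 288 to 315 FPKM in the knockouts and 313 ± 37.7 FPKM in control livers (−0.12 to 0.01). Nr2c1 and Nr2c2, the testicular receptors TR2 and TR4, had log2 changes of −0.16 to 0.16 and −0.09 to 0.24, and Nr6a1, germ cell nuclear factor, −0.28 to 0.25. Of 7 genes listed for ROR-alpha, Cyp7b1, the oxysterol hydroxylase, rose in Irs1 KO livers to 272 ± 149 FPKM, against 59.99 ± 36.9 FPKM in control livers (2.21, SE 0.47, adjusted p = 0.0027). Elovl3, a fatty acid elongase, was lower in Bcl6 KO livers (−2.79, adjusted p = 0.0332), with a median of 2.59 FPKM against 55.2 FPKM in control livers. The highest Bcl6 KO liver, at 149 FPKM, was above the highest control liver, at 129.5 FPKM. The call was lost in 4 settings (up to 0.182). It was also lost without Bcl6 KO replicate 1, 3 or 4, sgGFP replicate 2 or 4 or either sgLacZ liver (up to 0.162).

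Receptors were also compared among the 5 knockouts directly. Control means did not enter these contrasts, but the control livers were in the fit and helped set the spread. By limma's moderated F test 7 of 30 receptors differed, where 14.5% of all genes did. They were Pparg (adjusted p = 4.86e-05), Esr1 (5.69e-05), Rxra (0.00422), Rarb (0.0174), Nr4a2 (0.0191), Ppard (0.0335) and Rara (0.0417). Pparg, Esr1 and Rxra kept their calls in every setting and with each of 34 livers left out. Rara kept its call in 20 of 34 such fits, Ppard in 29, Nr4a2 in 32 and Rarb in 33. Nr4a2 and Rarb kept theirs in every setting. Rara lost its F test call with no filter, sgGFP livers alone or no intensity trend (adjusted p up to 0.0626). Ppard lost its call with equal medians, quantile normalization or a block for replicate number (up to 0.0605). Without Bcl6 KO replicate 4 the count was 3, 8 once the library labelled Srebf1 KO replicate 1 was left out, and without Smyd2 KO replicate 6 it was 9.

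Of 18 coregulators, which nuclear receptors recruit to chromatin, 2 rose and 2 fell in Irs1 KO livers and 1 fell in Bcl6 KO livers. None passed in the other knockouts in the main fit. These counts depended on processing. Over other settings, Irs1 KO counts ran from 1 to 8 higher and from 0 to 2 lower. Tbx3 KO counts reached 2 higher and 1 lower. In Irs1 KO livers Tbl1xr1, a subunit of the NCOR1 corepressor complex, fell to 323 ± 37.7 FPKM, against 472 ± 72.2 FPKM in control livers (−0.54, adjusted p = 0.000798), and Nrip1, a corepressor, fell by 0.67 (adjusted p = 0.00927). Both were lost with equal medians (0.0514 and 0.0648). Ncoa2, a coactivator, rose by 0.32 (adjusted p = 0.0214, up to 0.0742 without Irs1 KO replicate 2 or 3 or sgGFP replicate 3). Ncor1 fell in Bcl6 KO livers to 6067 ± 328 FPKM, against 7572 ± 674 FPKM in control livers (−0.32, adjusted p = 0.0328). It was lost in 5 settings (up to 0.349) and without Bcl6 KO replicate 1, 3 or 4, sgGFP replicate 1 or 3 or sgLacZ replicate 1 (up to 0.105).

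Of 13 tested nuclear receptors outside the 31, Hnf4a, which maintains hepatocyte identity, rose in 3 knockouts. It averaged 1904 ± 196 FPKM in Bcl6 KO, 2006 ± 79.7 FPKM in Irs1 KO and 1823 ± 163 FPKM in Tbx3 KO livers, against 1418 ± 129 FPKM in control livers (log2 changes 0.42, 0.50 and 0.36; adjusted p = 0.000369, 9.64e-05 and 0.00341). The Tbx3 KO call was lost in a fit of those groups alone (0.0726). Pgr is described beside Esr1.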

How the data were processed

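Total RNA from 34 mouse livers was sequenced with a stranded kit, per the labels' protocols. Reads were counted with featureCounts 1.6.4, per the submitters' processing notes, which name the builds mm10 and GRCh38 without a role; the sources used here give no aligner, annotation or strand setting. The authors deposited FPKM per gene symbol, and these values were used as deposited. Groups and replicates followed the labels. Genes with at least 1 FPKM in at least 5 libraries were tested with limma 3.58.1 (R 4.3.3) on log2(FPKM + 1), with an intensity trend, 1 fit of 34 livers, 6 levels and Benjamini-Hochberg adjustment (threshold 0.05). A fold on this scale understates changes of low genes. The rule for the receptors uses symbols alone, but it, the gene lists and the markers were chosen with earlier results of these data known. Receptors past the threshold against control are given per liver (by lowest, median and highest in groups over 5 livers), others by ranges, and up to 3 list genes per comparison by smallest adjusted p. The procedure was tested on simulated data. Alternatives were a pseudocount, no filter, equal medians, quantile normalization, sgGFP livers alone, no trend, knockout and control alone, a replicate block and each liver left out; pairwise and list results under them were added after seeing the data. Gene positions are from GENCODE on GRCm38 and promoters from RefSeq (GRCm38.p6); motif search, depth and figures used Python 3.11.15, pandas 2.3.3 and matplotlib 3.10.9. Precision is limited by the implied depth of 2110000 to 3130000 reads per library. A result of the list of other nuclear receptors is not reported here.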

Additional observations from a re-analysis of the deposited data

Results flagged for a closer look

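Of 186 sets of livers (31 receptors in 5 knockout groups and controls), 18 held 1 liver far from the rest by Dixon's criterion, where chance alone marks about 1 in 20. Smyd2 KO replicate 6 was such a liver in Nr1i3 (296 FPKM), Nr2c1 (32.1 FPKM), Nr5a2 (202.5 FPKM) and Esrrg (10.3 FPKM), all lowest, and in Rxrb (141 FPKM), highest. In Tbx3 KO livers, replicate 6 was lowest in Nr1h2 (216 FPKM), replicate 2 in Nr4a2 (2.46 FPKM) and replicate 7 in Esrrg (12.4 FPKM). In Bcl6 KO livers, replicate 4 was highest in Rarb (110.4 FPKM) and Nr3c1 (1582 FPKM), and replicate 3 lowest in Nr2f1 (4.20 FPKM). Irs1 KO replicate 4 was lowest in Nr3c2 (87.5 FPKM). Irs1 KO replicate 5 was the only liver of its group with Vdr above 0 (0.424 FPKM), as was the library labelled Srebf1 KO replicate 1 (0.162 FPKM), which was also lowest in Thra (91.0 FPKM). Among controls, sgGFP replicate 4 was lowest in Nr2c2 (82.1 FPKM), sgGFP replicate 3 in Esrrg (15.3 FPKM) and sgLacZ replicate 2 in Nr2f2 (472 FPKM).

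A difference between knockouts by the F test marked 7 receptors: Pparg (adjusted p = 4.86e-05), Esr1 (5.69e-05), Rxra (0.00422), Rarb (0.0174), Nr4a2 (0.0191), Ppard (0.0335) and Rara (0.0417).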

How the results depend on the processing

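Of 1350 receptor results under settings other than a liver left out, 1326 kept their call, 18 lost it and 6 gained it; with 1 liver left out, 1698 of 1740 kept it, 33 lost it and 9 gained it. Called changes did not reverse; sign flips of uncalled receptors were not counted. Receptors lower in Irs1 KO numbered 1 with no filter, equal medians, quantile normalization or sgGFP alone, against 3, and lower in Bcl6 KO 1 with equal medians, quantile normalization or a fit of both groups alone, against 2. In Tbx3 KO, 0 receptors were higher with no filter, sgGFP alone, no trend or both groups alone, and 0 lower in the last. With sgGFP alone 12 genes passed in Smyd2 KO and 152 in Srebf1 KO; with no trend 44 in Srebf1 KO; with both groups alone 118 in Tbx3 KO.

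Leaving out 1 liver, the genes called ranged from 743 to 1204 in Bcl6 KO, 1424 to 2185 in Irs1 KO, 0 to 4 in Smyd2 KO, 14 to 110 in Srebf1 KO and 258 to 1471 in Tbx3 KO. Counts moved by over 1.5 times without Bcl6 KO replicate 4 (743); in Smyd2 KO without its replicate 6 (4), sgGFP replicate 4 (3) or sgLacZ replicate 1 (1); in Srebf1 KO without its replicates 2 to 5 (39, 25, 20 and 41) or sgGFP replicate 1, 3 or 4 (14, 30 and 110); and in Tbx3 KO without its replicate 2, 3, 5 or 7 (314, 258, 299 and 1471) or sgGFP replicate 1 or 2 (258 and 295). Receptors higher and lower ranged over 1 to 1 and 1 to 3 in Bcl6 KO, 2 to 3 and 1 to 3 in Irs1 KO, and 0 to 1 and 1 to 2 in Tbx3 KO; 0 passed in Smyd2 and Srebf1 KO. Receptors differing among knockouts ranged from 3 to 9, and pairwise differences from 17 to 30, against 23.

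The replicate numbers do not pair livers: over 83 same-numbered pairs the correlation of deviations was −0.163 to 0.162 (median −0.00472), and 2 of 34 livers correlated best with their own number. With a replicate block 133 genes passed in Srebf1 KO and 1931 in Tbx3 KO, where 3 receptors were higher and 2 lower (Nr1i3, Esrra and Rarb gained calls, at adjusted p of 0.0166, 0.0486 and 0.00424). Replicate number 7 occurs in Tbx3 KO alone, so the block term for that number fits that liver by itself. With Tbx3 KO replicate 7 left out and no block, 1471 genes passed in Tbx3 KO. The causes of these shifts were not tested. Depth limits most the receptors of lowest FPKM, such as Nr2f1, Nr4a2 and Ppard.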
